A study of Mus musculus with 6 samples.

Results

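Genes that make, destroy or sense prostaglandins were followed in newborn mouse kidney and ureter with and without Ahnak, a large scaffold protein linked to calcium handling. The members were the rows of the deposited gene table named Ptgs1, Ptgs2, Ptges, Ptgis, Hpgd, Ptger1, Ptger2, Ptger3, Ptger4 and Ptgfr, which are 10 of 24532 genes, and every member was found and passed the filter on low counts. The 6 libraries came from tissue of mice at postnatal day 1: 2 from Ahnak KO kidney, 2 from WT kidney, 1 from Ahnak KO ureter and 1 from WT ureter. In the KO mice exon 5 of Ahnak is disrupted, and no strain, sex or treatment beyond genotype was given for either group. Each RNA was drawn from 2 to 4 kidneys or ureters, and the libraries were made from polyadenylated RNA of whole tissue.

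Prostaglandins are lipid signals made on demand from arachidonic acid, which phospholipases release from membranes. A cyclooxygenase, the product of Ptgs1 or Ptgs2, turns arachidonic acid into prostaglandin H2, and terminal synthases such as those of Ptges and Ptgis convert it to prostaglandin E2 or prostacyclin. The hormones act on nearby cells through G protein-coupled receptors until the transporter of Slco2a1 takes them up and the dehydrogenase of Hpgd inactivates them. In the kidney they are known for their part in renin release, blood flow, and salt and water handling, and in the ureter for their part in muscle tone and contraction.

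The upstream sequence of 4 members is shown because they are the pair of cyclooxygenase genes, of which only Ptgs1 was called higher in ureter, and the 2 members with the largest called rise in ureter. Each is the 250 bases before the start in the RefSeq table for GRCm38.p6, read 5′ to 3′ on the strand of the gene. Capitals mark matches on either strand to the GC box, spelled GGGCGG. They also mark the CCAAT box, spelled by its name. The regions are chr2:36230176-36230425 on the plus strand for Ptgs1, chr1:150099781-150100030 on the plus strand for Ptgs2, chr8:56294302-56294551 on the plus strand for Hpgd and chr15:5244188-5244437 on the minus strand for Ptger4. The Ptgs1 start used here lies inside the RefSeq gene span, so a longer transcript begins further upstream.
Ptgs1: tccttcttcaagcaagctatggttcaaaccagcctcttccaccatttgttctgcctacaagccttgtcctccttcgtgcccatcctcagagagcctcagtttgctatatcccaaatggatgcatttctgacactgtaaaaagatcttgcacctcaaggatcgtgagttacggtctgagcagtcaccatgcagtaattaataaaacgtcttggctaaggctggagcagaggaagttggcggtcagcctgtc
Ptgs2: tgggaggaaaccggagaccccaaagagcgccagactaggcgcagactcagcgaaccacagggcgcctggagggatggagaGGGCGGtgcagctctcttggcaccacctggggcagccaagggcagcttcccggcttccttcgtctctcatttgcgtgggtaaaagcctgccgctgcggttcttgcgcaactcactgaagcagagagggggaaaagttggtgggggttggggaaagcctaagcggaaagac
Hpgd: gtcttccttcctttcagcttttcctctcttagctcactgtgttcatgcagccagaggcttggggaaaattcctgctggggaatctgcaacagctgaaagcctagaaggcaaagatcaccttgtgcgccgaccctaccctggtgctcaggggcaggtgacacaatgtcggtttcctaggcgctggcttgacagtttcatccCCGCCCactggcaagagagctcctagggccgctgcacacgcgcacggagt
Ptger4: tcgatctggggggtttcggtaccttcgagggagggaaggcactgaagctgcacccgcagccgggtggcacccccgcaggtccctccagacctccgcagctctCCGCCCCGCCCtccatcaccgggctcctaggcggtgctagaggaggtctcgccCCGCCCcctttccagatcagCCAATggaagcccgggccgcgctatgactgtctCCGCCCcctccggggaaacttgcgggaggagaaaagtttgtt

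The upstream letters of the 2 cyclooxygenase genes differed. The Ptgs1 sequence held 0 GC boxes, 5 CpG and 48.0% G and C, whereas the Ptgs2 sequence held 1 GC box, 13 CpG and 61.6% G and C. The Ptger4 sequence had 4 GC boxes, with one pair overlapping, and 1 CCAAT in 66.8% G and C. A GC box occurred in 32.7% and CCAAT in 33.8% of 32851 promoter windows of the same length, while the median window held 6 CpG. Of the 8 members with a sequence in the table, Ptges (2), Ptger3 (3), Hpgd (1) and Ptgfr (1) also had GC boxes and Ptger2 had a CCAAT only, and Ptgis and Ptger1 had no entry. The TATA box TATAAA occurred in 0 of the 8 windows and in 12.4% of all windows. The E-box CACGTG, in 6.02% of all windows, and the first letters of a cyclic AMP response element, TGACG, in 17.8%, were likewise found on neither strand in any of the 8. A match is a run of letters and not a measured binding site.

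The libraries held 36410246 to 66095616 estimated counts, with the fewest in the KO ureter, where 3 counts correspond to 0.0824 CPM, which are counts scaled to a common library size. That library also held 8.06% of its counts in Rn45s, the ribosomal RNA precursor, against 0.496 to 0.632% in the other 5. KO kidney 1 stood apart in Xist, the RNA of the inactive X chromosome, with 176348 counts against 17 to 36 in the others, and it had 0 counts of the listed Y-linked genes. Ahnak itself was at 20.6 and 22.1 TPM, a level per transcript length, in KO kidney, 27.7 and 24.7 in WT kidney, 88.0 in KO ureter and 77.5 in WT ureter. In kidney its log2 fold change, KO over WT, was -0.47 (edgeR's quasi-likelihood test, unadjusted p = 0.00265, adjusted p = 0.9999). In ureter Ahnak was at 635 CPM in KO and 727 CPM in WT, so the direction turned with the scale, with a log2 ratio, KO over WT, of -0.19 from CPM and 0.18 from TPM. The transcript was therefore counted in every library, its level does not check the ureter label, and KO and WT below are genotypes as labelled. The tissue labels matched their markers: 7 urothelium genes summed to 8247 and 8683 TPM in ureter and 88.2 to 105 TPM in kidney, and 5 thick ascending limb genes to 0.149 and 0 TPM in ureter and 250 to 313 TPM in kidney.

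In kidney the order of the members by mean TPM, which is corrected for transcript length, was Ptgs1, Ptgis, Ptges, Hpgd, Ptger1, Ptger3, Ptger4, Ptgfr, Ptgs2 and Ptger2. Mean levels ran from 35.3 ± 4.62 TPM for Ptgs1 to 0.312 ± 0.053 TPM for Ptger2 (SD, n = 4). Ptgis, Ptges and Hpgd overlapped in their ranges, as did Ptger1 with Ptger3 and Ptger4 with Ptgfr with Ptgs2, so those neighbours were not told apart. In ureter Hpgd moved from rank 4 to rank 1 at 69.2 ± 4.67 TPM (SD, n = 2) and Ptgs1 came next at 55.1 ± 8.62 TPM (SD, n = 2). They were followed by Ptges, Ptgis and Ptger4 without overlap and then by Ptger3, Ptger1 and Ptgfr, each overlapping its neighbour, with Ptger2 and Ptgs2 lowest. Expressed as TPM, the 10 members summed to 109 to 135 in kidney, 222 in KO ureter and 174 in WT ureter.

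**Figure D1:**
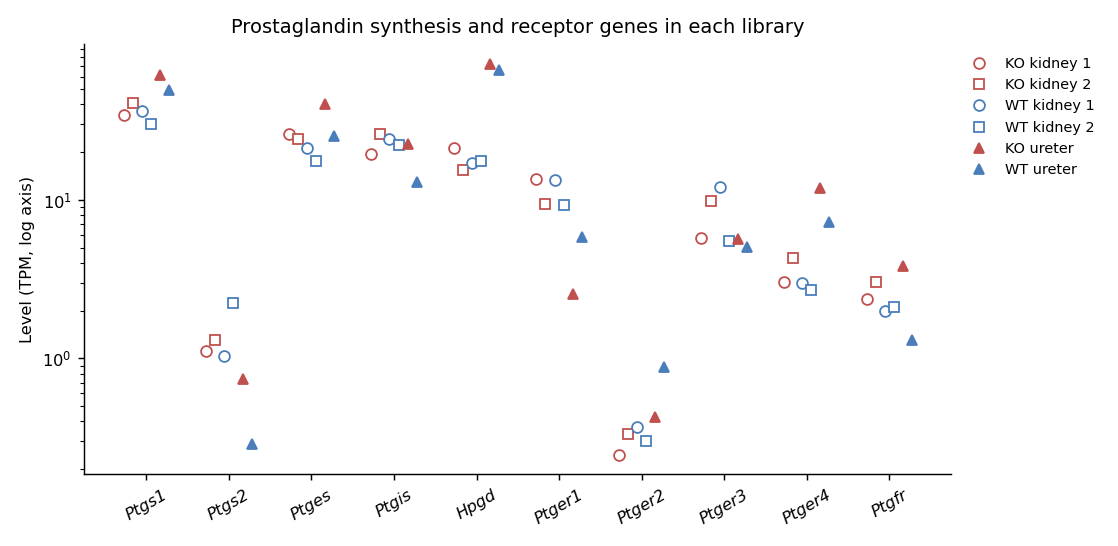
Level of each member in each library (y axis, TPM on a log axis); open symbols are kidney and filled triangles ureter, red is KO and blue is WT, and each symbol is a single library. Hpgd was at 15.3 to 21.2 TPM in kidney and at 65.9 and 72.5 TPM in ureter, whereas Ptgs2 was at 1.03 to 2.25 TPM in kidney and at 0.289 and 0.737 TPM in ureter.

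The first comparison asked how the pathway differs between the ureter, a muscular tube lined by urothelium, and the kidney. The test was passed by 5 members: Hpgd, Ptger4, Ptgs1 and Ptges rose in ureter and Ptger1 fell. Hpgd, the gene of the inactivating enzyme, rose 5.07-fold, and Ptger4, the gene of the EP4 receptor, rose 3.76-fold. Ptgs1 rose 2.03-fold and Ptges 1.89-fold. The other 5 members, Ptgs2, Ptgis, Ptger2, Ptger3 and Ptgfr, did not pass. These calls were 4 of 10 members higher and 1 of 10 lower, beside 21.4% of all 16873 tested genes called higher and 23.7% called lower. The median log2 fold change was 0.65 over the members and -0.08 over all tested genes. Fold changes and adjusted p-values are from edgeR's quasi-likelihood test on all 6 libraries with genotype as a second term, and a gene was called at an adjusted p under 0.05. The fit took the 6 libraries as independent. The column names of kidney replicate 2 and of the ureter library share a number within each genotype. Whether they came from the same mice is not stated.

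Among the cyclooxygenases, Ptgs1 encodes the form that is present in most tissues at rest. Its level was 34.1 and 41.0 TPM in KO kidney, 36.2 and 29.9 TPM in WT kidney, 61.2 TPM in KO ureter and 49.0 TPM in WT ureter. Both ureter libraries were above all 4 kidney libraries. The log2 fold change of Ptgs1 was 1.02 (SE 0.143, 95% interval 0.68 to 1.37, adjusted p = 0.00196). Ptgs2 encodes the inducible form, which in kidney is known from the macula densa and from interstitial cells of the medulla. It was at 1.11 and 1.304 TPM in KO kidney, 1.03 and 2.25 TPM in WT kidney, 0.737 TPM in KO ureter and 0.289 TPM in WT ureter. Both ureter libraries were below the kidney range on the TPM scale, but on the CPM scale the tissues overlapped, at 2.14 to 4.66 CPM in kidney and 2.15 and 0.758 CPM in ureter. On the log2 scale Ptgs2 had a fold change of -1.10 (SE 0.611, 95% interval -2.57 to 0.37, adjusted p = 0.189) and rested on 64 and 39 counts in ureter.

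The ratio of Ptgs1 to Ptgs2 within a library was 30.8, 31.4 and 35.2 in 3 kidney libraries, 13.3 in WT kidney 2, 83.1 in KO ureter and 170 in WT ureter, all in TPM. Ptgs1 was thus the main cyclooxygenase transcript in all 6 libraries, and the ratio was higher in both ureter libraries than in any kidney library. This is a description with no test of its own.

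Ptges encodes the inducible membrane synthase of prostaglandin E2, the microsomal form. It was at 25.9 and 24.3 TPM in KO kidney, 21.4 and 17.6 TPM in WT kidney, 40.4 TPM in KO ureter and 25.2 TPM in WT ureter. The WT ureter lay inside the kidney range in TPM, but in CPM both ureter libraries, at 96.4 and 52.6, were above the kidney libraries at 29.7 to 43.8. For Ptges the log2 fold change was 0.92 (SE 0.145, 95% interval 0.57 to 1.27, adjusted p = 0.00327). Ptgis encodes prostacyclin synthase, an enzyme of vessel walls and smooth muscle. Its values were 19.4, 25.9, 24.1 and 22.3 TPM in the kidney libraries KO 1, KO 2, WT 1 and WT 2, 22.4 TPM in KO ureter and 13.0 TPM in WT ureter. For Ptgis the value was a log2 fold change of -0.01 (95% interval -0.65 to 0.62, adjusted p = 0.973), so a change of up to 1.54-fold in either direction lay inside the interval.

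Hpgd encodes the dehydrogenase that starts the breakdown of prostaglandin E2 and related hormones. It was at 21.2 and 15.3 TPM in KO kidney, 17.2 and 17.6 TPM in WT kidney, 72.5 TPM in KO ureter and 65.9 TPM in WT ureter. The gap between the tissues was far wider than the spread within either of them. The log2 fold change of Hpgd was 2.34 (SE 0.147, 95% interval 1.99 to 2.695, adjusted p = 8.0e-05), and it was 2.22 in the WT libraries alone and 2.45 in the KO libraries alone. The ratio of the Hpgd transcript to that of Ptges, a synthase gene of prostaglandin E2, was 0.632 to 1.005 in kidney, 1.79 in KO ureter and 2.62 in WT ureter, in TPM. It leaves out the other synthase genes, Ptges2 and Ptges3, and does not measure synthesis or breakdown. Ptges3 alone was at 227 to 253 TPM in kidney, 174 TPM in KO ureter and 205 TPM in WT ureter.

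**Figure D2:**
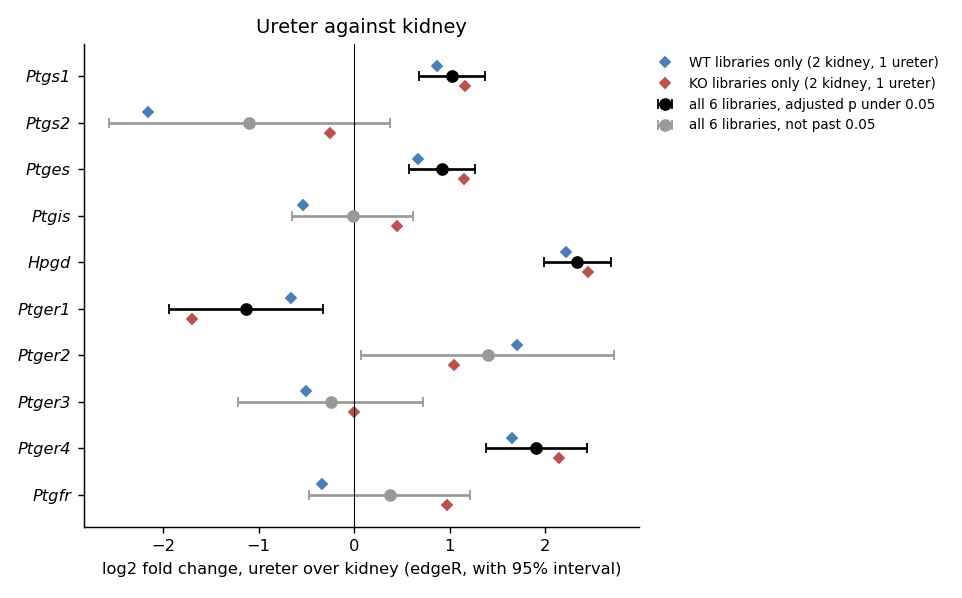
Log2 fold change of each member, ureter over kidney (x axis), from edgeR: circles with 95% intervals use all 6 libraries, black where the adjusted p was under 0.05, and diamonds show the WT (blue) and KO (red) libraries fitted alone. Hpgd, Ptger4, Ptgs1 and Ptges lie to the right of 0 in all 3 fits and Ptger1 to the left, while Ptgis and Ptgfr lie on opposite sides of 0 in the 2 genotypes.

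The receptors for prostaglandin E2 are EP1 to EP4, encoded by Ptger1 to Ptger4. EP2 and EP4 raise cyclic AMP through Gs, EP3 lowers it through Gi and EP1 raises calcium. Ptger4 was at 3.04 and 4.28 TPM in KO kidney, 2.97 and 2.704 TPM in WT kidney, 11.9 TPM in KO ureter and 7.26 TPM in WT ureter. Each ureter library exceeded every kidney library. For Ptger4 it came to a log2 fold change of 1.91 (SE 0.221, 95% interval 1.38 to 2.44, adjusted p = 0.000897). Ptger2 was the lowest receptor in kidney, at 0.246 to 0.370 TPM or 26 to 46 counts, and was at 0.423 TPM in KO ureter and 0.882 TPM in WT ureter. The tissues did not overlap for Ptger2, yet its log2 fold change of 1.40 did not pass (95% interval 0.08 to 2.72, adjusted p = 0.0809).

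Ptger1 was at 13.5 and 9.41 TPM in KO kidney, 13.3 and 9.27 TPM in WT kidney, 2.54 TPM in KO ureter and 5.80 TPM in WT ureter. Both ureter libraries were below all kidney libraries. The edgeR log2 fold change of Ptger1 was -1.13 (SE 0.334, 95% interval -1.94 to -0.33, adjusted p = 0.0332), a 2.19-fold lower level in ureter. The call was lost when KO kidney 1 (adjusted p = 0.0516), KO kidney 2 (0.0671), WT kidney 1 (0.0870) or the KO ureter (0.196) was left out, each by edgeR's quasi-likelihood test.

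Ptger3, which in kidney is known from the thick ascending limb and collecting duct, spread widely within kidney, at 5.77 and 9.80 TPM in KO and 12.1 and 5.47 TPM in WT. It was at 5.67 TPM in KO ureter and 5.02 TPM in WT ureter, so the tissues overlapped. Its log2 fold change was -0.24 (95% interval -1.22 to 0.73, adjusted p = 0.651). Ptgfr, the gene of the receptor for prostaglandin F2alpha, was at 2.36 and 3.01 TPM in KO kidney, 1.97 and 2.104 TPM in WT kidney, 3.83 TPM in KO ureter and 1.31 TPM in WT ureter. The 2 ureter libraries thus lay on either side of the kidney range, and the log2 fold change of Ptgfr was 0.37 (95% interval -0.47 to 1.22, adjusted p = 0.422).

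The summed EP receptor level was alike in size in both tissues, at 17.7 to 28.7 TPM in kidney and 20.5 and 19.0 TPM in ureter, but its makeup was not. Ptger1 held 39.5 to 59.8% of it in kidney, 12.4% in KO ureter and 30.6% in WT ureter. Ptger4 held 10.3 to 18.0% in kidney, 57.9% in KO ureter and 38.3% in WT ureter. These shares restate the values above and carry no test.

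**Figure D3:**
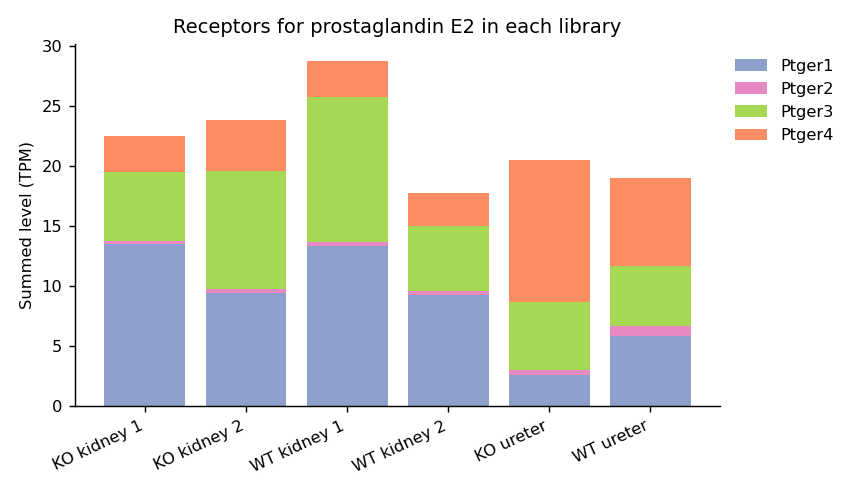
Summed level of the 4 EP receptor genes in each library (y axis, TPM), with each gene's part stacked in colour. Ptger4, at the top, is 2.704 to 4.28 TPM in the 4 kidney libraries and 7.26 and 11.9 TPM in the 2 ureter libraries.

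On the CPM scale, the 2 ureter libraries lay above all 4 kidney libraries for 5 members, Hpgd, Ptger4, Ptgs1, Ptges and Ptger2, and below them for Ptger1. Among all 16873 tested genes, 28.2% lay wholly above and 32.8% wholly below. The tissues differ in their cells, and fewer cells of a type and less RNA per cell cannot be told apart in whole tissue. The 7 smooth muscle marker genes summed to 500 to 611 TPM in kidney and 4404 and 5772 TPM in ureter. Smtn among them was at 57.9 to 66.6 TPM in kidney and on either side of that range in ureter, at 48.5 and 87.5 TPM. Stroma genes, 7 of them, summed to 833 to 1111 TPM in kidney and 7684 and 6483 TPM in ureter. Pdgfrb among them went the other way, at 49.4 to 63.7 TPM in kidney and 22.8 and 26.7 TPM in ureter. The sum of 5 podocyte genes was lower in ureter, at 356 to 433 TPM in kidney and 39.5 and 34.7 TPM in ureter. Synpo among them overlapped between the tissues, at 21.2 to 29.8 TPM in kidney and 23.5 and 19.0 TPM in ureter. Collecting duct genes were mixed: Aqp2 was at 388 to 569 TPM in kidney and 0 in both ureter libraries, and Avpr2 and Calb1 were likewise at 0 in ureter, whereas Aqp3 was at 75.9 to 97.8 TPM in kidney and 438 and 316 TPM in ureter. Mast cell genes, 7 of them, were at 18.8 to 22.9 TPM in kidney and 425 and 330 TPM in ureter. The part of these cells in the members' changes was not tested.

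The rest of the prostanoid pathway was read from a list of 34 genes in the table, of which 27 passed the filter. In ureter 7 of the 27 rose and 6 fell, beside 21.4% of all tested genes called higher and 23.7% called lower, with a median log2 fold change of 0.19 beside -0.08 over all genes. Pla2g4a, the phospholipase that releases arachidonic acid, was at 40.4 to 53.5 TPM in kidney and 43.1 and 55.7 TPM in ureter, so the tissues overlapped in TPM. In CPM it was at 55.6 to 70.9 in kidney and 80.5 and 91.1 in ureter, and the fit on counts gave a 1.40-fold rise (adjusted p = 0.0248). Pla2g4f, a relative of it, had 0 to 13 counts in kidney and 55 and 177 counts in ureter (adjusted p = 0.0255). Pla2g12a, a secreted phospholipase, fell, from 42.1 to 46.1 TPM in kidney to 18.1 and 16.2 TPM in ureter (log2 fold change -0.998, adjusted p = 0.00164). Pla2g4b and Pla2g5 also passed as lower, but had only 7 to 103 and 19 to 26 counts in kidney and 0 in both ureter libraries. Their kidney means in CPM were 7.49-fold and 4.28-fold above a floor of 3 counts per ureter library. For Pla2g4b that mean was carried by WT kidney 1, at 1.45 CPM against 0.115 to 0.657 CPM in the other kidney libraries. All adjusted p-values in this paragraph and the next are from edgeR's quasi-likelihood test.

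The other terminal synthases went down or did not pass. Tbxas1, the thromboxane synthase, fell (log2 fold change -1.85, adjusted p = 0.0071), from 5.72 to 7.15 TPM in kidney to 1.64 and 0.995 TPM in ureter. Ptgds, a prostaglandin D synthase, fell by the same size (log2 fold change -1.85, adjusted p = 0.0192), from 6.41 to 8.05 TPM to 2.07 and 1.01 TPM. Hpgds, the other prostaglandin D synthase, had a log2 fold change of 0.08 (95% interval -0.63 to 0.79). Ptges2 and Ptges3, the further prostaglandin E synthases, had values of -0.12 (95% interval -0.50 to 0.25) and 0.01 (95% interval -0.22 to 0.25).

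Slco2a1, the uptake transporter, rose 1.70-fold (adjusted p = 0.0114) and Abcc4, an exporter of prostaglandins, rose 2.28-fold (adjusted p = 0.0091), both by edgeR's quasi-likelihood test. Ptgr1, a reductase that acts after the Hpgd step, rose 12.6-fold, from 27.2 to 30.6 TPM in kidney to 270 and 303 TPM in ureter. Cbr2, a carbonyl reductase of broad substrate range, rose 85.2-fold, from 1.04 to 3.64 TPM to 140 and 135 TPM, whereas its relative Cbr1 fell, from 249 to 303 TPM to 78.7 and 88.0 TPM. Ptgfrn, a membrane protein that binds the prostaglandin F receptor, rose 2.84-fold. The receptor genes Ptgir, for prostacyclin, and Tbxa2r, for thromboxane, had log2 fold changes of -0.19 (95% interval -1.16 to 0.79) and 0.28 (95% interval -0.26 to 0.82) and did not pass.

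**Figure D4:**
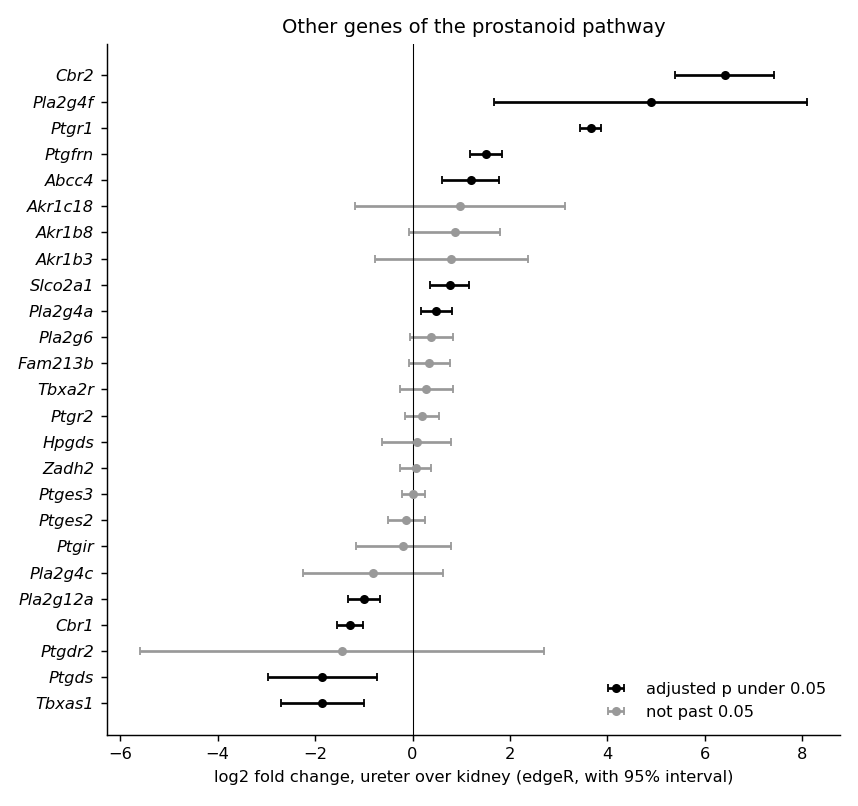
Log2 fold change of 25 other genes of the prostanoid pathway, ureter over kidney (x axis), from edgeR with 95% intervals; black marks an adjusted p under 0.05. Cbr2 and Ptgr1 are the highest with narrow intervals, Tbxas1 and Ptgds the lowest, and 2 tested genes at 0 counts in both ureter libraries are not drawn.

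Arachidonic acid also feeds the lipoxygenase and cytochrome P450 enzymes. Of 23 tested genes of those branches, 5 rose and 5 fell in ureter, beside the same 21.4% higher and 23.7% lower among all tested genes. The largest rise that passed was Alox5, the 5-lipoxygenase of leukotriene synthesis, from 0 to 16 counts in kidney to 100 and 75 counts in ureter. The largest fall was Cyp2j5, an epoxygenase of the proximal tubule, from 2372 to 4835 counts to 0 in both ureter libraries. Its kidney mean in CPM was 741-fold above the same floor. Proximal tubule markers were at 232 to 373 TPM in kidney and 0.863 and 0.577 TPM in ureter. Of 31 genes that signal below prostanoid receptors, 6 rose and 9 fell, against that background of 21.4% and 23.7%. Plcb4, a phospholipase C below Gq-coupled receptors, rose 3.91-fold, and Rapgef4, a cyclic AMP sensor, fell most, from 7.22 to 8.46 TPM to 0.292 and 0.902 TPM.

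The second comparison asked whether loss of Ahnak changed the pathway in kidney, with 2 libraries of each genotype. No member passed (0 of 10), beside 0.0121% of 16481 tested genes, 2 in all, with 227 genes at an unadjusted p under 0.05 by edgeR's quasi-likelihood test and 44 genes called by DESeq2. Those 227 genes are a smaller share than the 0.05 that evenly spread p-values would give. Low p-values were thus scarce among all genes, and their absence from a list says little about it. All 10 members had an adjusted p of 0.9999. Ptges came closest, with a log2 fold change of 0.40, KO over WT (SE 0.145, 95% interval 0.04 to 0.75, edgeR unadjusted p = 0.0334). Its KO kidney libraries were at 43.8 and 42.7 CPM and its WT libraries at 36.2 and 29.7 CPM, without overlap. Ptger4 and Ptgfr also had both KO libraries above both WT libraries, at 4.71 and 6.75 against 4.59 and 4.17 CPM for Ptger4 and 4.84 and 6.41 against 4.05 and 4.31 CPM for Ptgfr. In all tested genes, 12.8% had the KO kidney libraries wholly above. No member had them wholly below, and the share of all genes that did is not given here.

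The intervals show what the kidney data could miss. The log2 fold change was 0.22 for Ptgs1 (95% interval -0.20 to 0.64), 0.10 for Hpgd (-0.38 to 0.57) and 0.00 for Ptgis (-0.49 to 0.49). It was less well fixed for Ptger1, at 0.05 (-0.59 to 0.68), Ptger4, at 0.39 (-0.29 to 1.07), and Ptgfr, at 0.43 (-0.22 to 1.08). Ptgs2 at -0.41 (-1.48 to 0.67), Ptger3 at -0.13 (-1.20 to 0.94) and Ptger2 at -0.17 (-1.77 to 1.42) could each have differed by 2-fold or more without a call. So could Ptger4 and Ptgfr, as higher in KO, since their intervals ended at 1.07 and 1.08. For Ptgs2 the estimate rested on WT kidney 2, with 284 counts against 139 to 167 in the other 3, and became 0.26 without it. None of the other prostanoid genes (26 tested), lipoxygenase and P450 genes (23) or receptor signalling genes (31) passed either, and 0 of them had an unadjusted p under 0.05.

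The labels do not name the mice, while the study's methods speak of 2 biological replicates. KO kidney 1 had 176348 Xist counts and 0 of the Y-linked genes, and KO kidney 2 had 21 and 16399. Those 2 libraries therefore came from different mice. The WT kidney libraries were alike in both, so these counts do not tell their mice apart. The p-values measure the spread between these libraries, which may in part be technical. KO kidney 1, the library set apart by Xist, was also the KO library with the higher dissociation and injury sum, at 614 TPM against 271 TPM in KO kidney 2. WT kidney 2 was at 613 TPM and WT kidney 1 at 378 TPM. Different genes made up the like sums of KO kidney 1 and WT kidney 2. Egr1 was at 252 TPM in KO kidney 1 and 53.2 TPM in WT kidney 2, whereas Hspa1b was at 18.6 and 172 TPM. The part of the Xist difference or of these genes in the members' values was not tested. Without KO kidney 1, the log2 fold change of Hpgd between genotypes was -0.12 and that of Ptges 0.38, and still 0 members passed.

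The third comparison set the KO ureter beside the WT ureter, a single library each, so that no test was possible. Of 10 members, 8 were higher in the library labelled KO, beside 48.7% of all 16117 genes with at least 10 counts. The median log2 ratio was 0.68 over the members and -0.02 over all those genes. The 2 members Ptgfr and Ptgs2 were past a ratio of 2 as higher and 0 as lower, beside 4.50% of all genes past it as higher and 5.75% as lower. The ratios below are of CPM, with 0.5 CPM added to each library before the log, and the 95% intervals, taken on the counts without that addition, cover counting error only.

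Ptgfr had 329 counts in KO ureter and 171 in WT ureter, a log2 ratio of 1.58 (1.74 without the addition, interval 1.47 to 2.01). Ptgs2 had 64 and 39 counts, a log2 ratio of 1.04 (1.51 without the addition, interval 0.91 to 2.12). In TPM the KO ureter, at 0.737, was still below every kidney library for Ptgs2. In CPM scaled over all 6 libraries it was at 2.15, just above WT kidney 1 at 2.14. Ptgis, with 765 and 672 counts, had a log2 ratio of 0.95 (interval 0.83 to 1.13). Ptges, at 2866 and 2705 counts, and Ptger4, at 756 and 713, had log2 ratios of 0.87 (interval 0.80 to 0.95) and 0.85 (interval 0.73 to 1.03). The more abundant Ptgs1 and Hpgd differed less, with log2 ratios of 0.51 and 0.33, and Ptger3 had 0.34.

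Ptger1 and Ptger2 went the other way. Ptger1 had 103 counts in KO ureter and 356 in WT ureter, a log2 ratio of -0.89 (interval -1.33 to -0.68), and Ptger2 had 32 and 99 counts, a log2 ratio of -0.60 (interval -1.46 to -0.25). Scaled by library size alone, the log2 ratio was 0.31 for Ptgs1 and 0.13 for Hpgd, with a median of -0.20 over all genes, and the share of lower genes among those past a ratio of 2 rose from 56.1% to 70.7%. Ptgs2 then came to 0.90 and no longer passed a ratio of 2, while Ptger1 came to -1.07 and did as lower. The directions of the 10 members were the same under all 5 other settings tried.

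**Figure D5:**
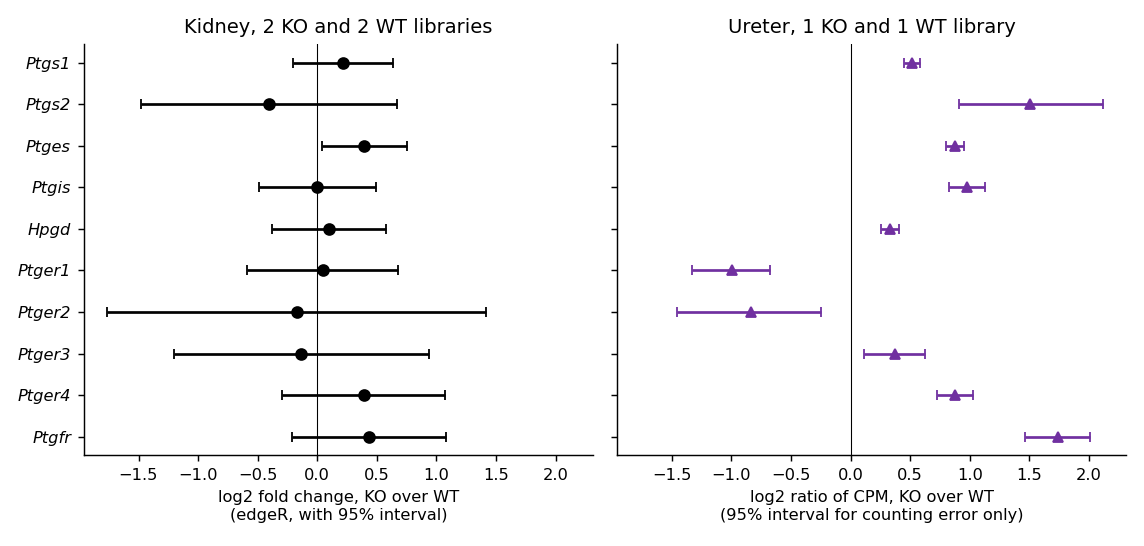
KO over WT for each member on a log2 scale (x axis), on the left in kidney from edgeR with 95% intervals over 2 libraries of each genotype, on the right in ureter as the ratio of 1 library to 1 library, with intervals for counting error only. Ptges alone has a kidney interval clear of 0, and the narrow ureter intervals hold no spread between animals.

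The KO ureter also differed from the WT ureter in its cell type markers. Smooth muscle genes summed to 4404 TPM in KO and 5772 TPM in WT, striated muscle genes to 172 and 471 TPM and neutrophil genes to 152 and 446 TPM. Stroma genes summed to 7684 and 6483 TPM, macrophage genes to 245 and 164 TPM and platelet genes to 193 and 119 TPM. Injury response genes were at 383 and 1190 TPM, and Rn45s held 8.06% of the counts in KO and 0.626% in WT. Not every gene went with its sum. The platelet sum was mostly Pf4, at 178 TPM in KO and 88.3 TPM in WT. Gp1bb, at 11.2 and 27.6 TPM, and Itga2b were lower in KO. So were Col1a1 and Pdgfrb of the stroma genes and, by little, Mrc1 of the macrophage genes. Myh11 and Des of smooth muscle, Retnlg of the neutrophil genes and Ccl2 and Cxcl1 of the injury genes were higher in KO. With 1 library of each genotype these differences and the genotype cannot be told apart.

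Whether the genotype difference in ureter departed from that in kidney was tested as an interaction over all 6 libraries. None of the 10 members passed, beside 0.108% of 17557 tested genes (19), with 2174 genes at an unadjusted p under 0.05, and DESeq2 called 479 genes and 0 members. Ptgfr and Ptgis were the 2 members with an unadjusted p under 0.05 in edgeR's quasi-likelihood test. Their log2 differences between the 2 genotype effects were 1.299 (95% interval 0.19 to 2.41, adjusted p = 0.331) and 0.97 (95% interval 0.09 to 1.86, adjusted p = 0.358). The estimate for Ptgs2 was larger but less well fixed, at 1.91 (95% interval -0.18 to 3.99, adjusted p = 0.439). Ptger1 had the lowest, at -1.05 (95% interval -2.24 to 0.15, adjusted p = 0.46). The kidney spread stands in for that of the ureter in this fit, since the ureter has no replicate of either genotype.

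The genes most like each cyclooxygenase over the 6 libraries were found among 11142 genes with a mean of at least 10 CPM. For Ptgs1 they were Chmp4b (r = 0.997), Map1lc3a (r = 0.997) and Pfdn5 (r = 0.996), all higher in both ureter libraries than in the kidney libraries, as Ptgs1 was. For Ptgs2 they were Ltn1 (r = 0.988), Zfp111 (r = 0.982) and Nol8 (r = 0.980), whose highest CPM was in WT kidney 2 and lowest in WT ureter, as for Ptgs2. These are Pearson correlations of log2(CPM + 0.5), a description of 6 libraries that share their scaling and fall into 2 tissues, with the best of many genes picked.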

How the data were processed

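RNA-seq libraries from 4 kidney and 2 ureter samples were read from a table of 24532 genes that the authors deposited with estimated counts in whole numbers, FPKM and TPM values (both scaled by transcript length and library) for each library. The labels' processing notes name FastQC 0.11.7, Trimmomatic 0.38, HISAT2 2.1.0, StringTie 1.3.4b and mm10, whereas the study's methods name Cutadapt 2.8, STAR 2.7.1a and Cufflinks 2.2.1 and another mouse assembly. The deposited table itself carries the name mm10, the assembly of the labels' notes, and whether strand was used is not given in the sources used here. In the gene annotation several members share exonic bases with other genes, among them Ptger4 with 2 genes. The part of shared reads in the members' counts was not tested. Sample titles call the ureter libraries kidney, and the tissue label was followed.

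Counts were tested in edgeR 4.0.16 (TMM scaling, filterByExpr, quasi-likelihood test, Benjamini-Hochberg adjustment over all tested genes, threshold 0.05), in R 4.3.3. Kidney genotypes were compared in 4 libraries, tissues in 6 with genotype as a term, and the difference of genotype effects in 6. DESeq2 1.42.0 on the counts and limma 3.58.1 on log2(FPKM + 0.1) and log2(FPKM + 1) were alternatives. The single ureter libraries were compared as log2(CPM + 0.5), for genes with at least 10 counts in either. Levels between genes used TPM. The kidney genotype fit and the tissue fit were tried on simulated counts, drawn with less spread between libraries than these data hold. They therefore do not show how the fits perform at the spread of these data. The interaction fit was not tried. Counting intervals, at 95%, and floors of 3 counts cover counting error only, and totals of 36410246 to 66095616 counts set their width.

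All members are named, with the other prostanoid genes that passed between tissues and 10 named whatever their values, the largest rise and fall of the lipoxygenase and P450 list and of the signalling list, and the 3 genes most like Ptgs1 and Ptgs2. The members and lists were chosen with earlier results of these data known. Promoter sequences are RefSeq's (GRCm38.p6). A further result on Ptger1 is not reported here.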

Additional observations from a re-analysis of the deposited data

How the results depend on the processing

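Hpgd, Ptger4, Ptgs1 and Ptges kept their direction and their call between the tissues under all 15 alternatives, while Ptger1 lost its call in 6 of them, among them the WT libraries alone. A call was gained by Ptger2 with DESeq2, by Ptgs2 in the WT libraries alone and by Ptgfr without the WT ureter (adjusted p = 0.0481). Members called ranged from 4 to 6. Between genotypes in kidney, and for the interaction, 0 members were called under every alternative. The cause of each change was not tested.

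The number of genes called between kidney genotypes, 2, became 44 with DESeq2 and 0 with limma on either FPKM scale, and ran from 3 to 87 with a library left out. Replicate numbers shared by KO and WT kidney gave no pairing: the deviations of same-numbered libraries had a correlation of -0.28 across 16481 genes. With the replicate block 0 genes were called, and 1 with the crossed block, which was chosen after seeing the data. The interaction count, 19, became 479 with DESeq2 and ran from 4 to 270 with a kidney library left out. The tissue count, 7595, became 4841 with kidney replicate 2 and the ureter libraries only, added after seeing the data because their column names share a number. With limma on log2(FPKM + 0.1) the median over all genes moved from -0.08 to -0.35, with log2(FPKM + 1) to -0.24, and the higher share of called genes from 47.4% to 27.5% and 28.4%. The ureter count past a ratio of 2, 1651, became 2771 with log2(CPM + 0.1), 2654 with FPKM + 0.1 and 2936 with TPM + 0.1.

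Signs turned only for values that had not passed. Between kidney genotypes, Ptgis was 0.00 and became -0.0023 with no filter, -0.0172 with the replicate block and -0.0165 with the crossed block, -0.00048 with all 6 libraries in 1 fit, -0.0367 and -0.0327 with limma at 0.1 and 1 and -0.26 to 0.22 with a library left out. With a library left out, Ptgs2 ran from -0.87 to 0.26, Hpgd from -0.12 to 0.28, Ptger1 from -0.20 to 0.33, Ptger2 from -0.45 to 0.0534 and Ptger3 from -0.61 to 0.55. Between tissues, Ptgis became 9.7e-05 with DESeq2, 5.7e-06 with its size factors, 0.0381 with tissue as the only term and 0.45 in the KO libraries, and ran from -0.53 to 0.45 with a library left out, Ptger3 ran from -0.50 to 0.0786, and Ptgfr became -0.34 in the WT libraries and ran from -0.33 to 0.97. For the interaction, Ptger3 ran from -0.17 to 0.98. Counts of 26 to 99 for Ptger2 and 39 to 284 for Ptgs2 set the least precise values.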
